A study of Homo sapiens with 12 samples.

Results

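Nucleotides 350 to 560 of SLERT are the 3′ portion of the RNA between its small nucleolar RNA (snoRNA) ends, 211 of the 694 nucleotides in the deposited tables. They are defined by position, counted from the 5′ end of the RNA. SLERT is a nucleolar long noncoding RNA made from within the TBRG4 gene. A snoRNA forms each of its ends, SNORA5C the 5′ one and SNORA5A the 3′ one. With the RefSeq lengths of these snoRNAs, the SNORA5C part runs from 1 to 137 and the SNORA5A part from 561 to 694. The stretch from 350 to 560 therefore lies next to the SNORA5A part and continues the middle from 138 to 349.

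The RNA was probed in PA1, an established line of human ovarian teratocarcinoma cells, with 6 libraries of SLERT in 3 groups of 2. One group came from cells given 200 mM NAI for 10 minutes at 37 °C, one from cells given the solvent DMSO alone, and one was a denatured control (DC) heated to 95 °C in formamide. Whether the DC received NAI is not stated, so it is called here only by its name. All 6 libraries were reverse transcribed by SuperScript II with 6 mM Mn2+ and SLERT primers, and then amplified by nested PCR. In every sample the treatment text of the labels names another condition than the title. The condition of each value was therefore taken from the column roles of the tables, modified (NAI), untreated (DMSO) and denatured (DC). Whether the replicates were separate cultures is not stated, so the p-values rest on a spread among libraries that may be only technical.

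SHAPE chemistry reads the local mobility of an RNA backbone. NAI acylates the ribose hydroxyl of nucleotides that move freely, and a nucleotide held in a base pair or by a protein reacts less. In manganese the reverse transcriptase reads through the adduct and leaves a mutation in the cDNA, so the mutation rate of a nucleotide rises with its reactivity. DMSO gives the background of the enzyme and of the sequence, and in the usual design a denatured control gives the signal of an unfolded chain. Box H/ACA snoRNAs such as those at the ends of SLERT fold into hairpins that guide pseudouridylation. A low reactivity does not tell pairing from binding.

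The sequence is shown because every result is a position in it. It is written with the 38 nucleotides in capitals whose normalised reactivity was over 0.85 in both replicates, called flexible here.
Nucleotides 350 to 560: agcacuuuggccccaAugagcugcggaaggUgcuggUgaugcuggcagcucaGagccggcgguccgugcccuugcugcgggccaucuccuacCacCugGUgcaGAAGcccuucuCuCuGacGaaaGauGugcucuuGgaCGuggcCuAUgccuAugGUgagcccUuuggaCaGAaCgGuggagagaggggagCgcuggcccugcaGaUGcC

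Read depth divided the region into 3 parts, and this division touched the mutation rates. Over the region, the NAI libraries had a median effective depth of 680523 reads (replicate 1) and 172355 (replicate 2). The DMSO libraries had 417521 and 106550, and the DC libraries 694579 and 182868. Depth rose in all 6 libraries at nucleotide 423 and fell again after 482, which left a raised zone of 60 nucleotides. Another zone of 60 nucleotides, from 212 to 271, lay 5′ of the region. Near each border of the zone a segment of 19 nucleotides was set by which NAI replicate had the higher rate. These segments had low rates and are called the 5′ edge (423 to 441) and the 3′ edge (463 to 481). Their sequences are shown because several calls fall within them, with flexible nucleotides in capitals.
5′ edge: gcugcgggccaucuccuac
3′ edge: uCuCuGacGaaaGauGugc

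**Figure D1:**
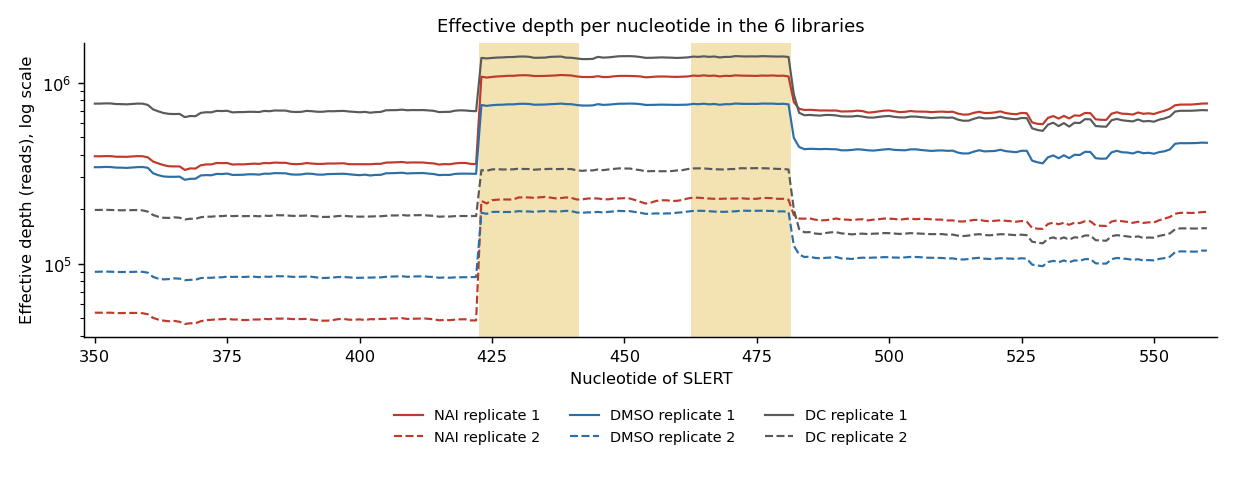
Effective depth per nucleotide (reads, log scale) against the nucleotide of SLERT in the 6 libraries; colour gives the condition, solid and dashed lines replicates 1 and 2, and shading the 2 edge segments. Depth steps up at 423 and down after 482 in every library, and the step up is largest in the NAI libraries.

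The height of the steps differed between libraries. At the 5′ edge the read depth of the flanking 19 nucleotides outside the zone was 33.4% and 21.4% of the zone's depth for NAI replicates 1 and 2, 41.7% and 43.2% for DMSO, and 51.1% and 54.9% for DC. The NAI libraries thus had the lowest share, and replicate 2 less than replicate 1. At the 3′ edge the order was turned, with 65.4% and 77.8% for NAI, 57.0% and 55.9% for DMSO, and 48.2% and 44.8% for DC.

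The rates within the edges moved with these shares. In the 5′ edge the mutation rate was 0.280% and 0.179% with NAI, 0.269% and 0.285% with DMSO, and 0.409% and 0.423% in DC. In NAI the rate of replicate 1 was 1.57 times that of replicate 2. Divided by flank depth, meaning that effective depth was multiplied by the share above, the same mutations gave 0.840% and 0.835% with NAI, 0.646% and 0.658% with DMSO, and 0.801% and 0.770% in DC. The NAI replicates then differed by a factor of 1.01, and NAI stood above DMSO in both. In the 3′ edge the rates were 0.516% and 0.605% with NAI, 0.405% and 0.367% with DMSO, and 0.358% and 0.328% in DC. On flank depth they were 0.789% and 0.778%, 0.711% and 0.656%, and 0.744% and 0.733%. Between the edges, at 442 to 462, the rates as deposited were 1.1% and 1.11% with NAI, 0.749% and 0.709% with DMSO, and 0.975% and 0.951% in DC. Bases that a PCR primer supplies carry no mutation from the RNA, as background. The sources used here do not give primer positions, and the part of primers in these values was not tested. The edges and the flank depth were defined after seeing the data, the edges from the order of the NAI replicates within the zone. That order within each edge therefore follows from the definition. The closeness of the NAI replicates on flank depth is given for that reason as a description. Counts of calls over the region are also given on flank depth, as are values of several named nucleotides in the edges. Base medians and the composition of stretches are given on the deposited depth only.

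**Figure D2:**
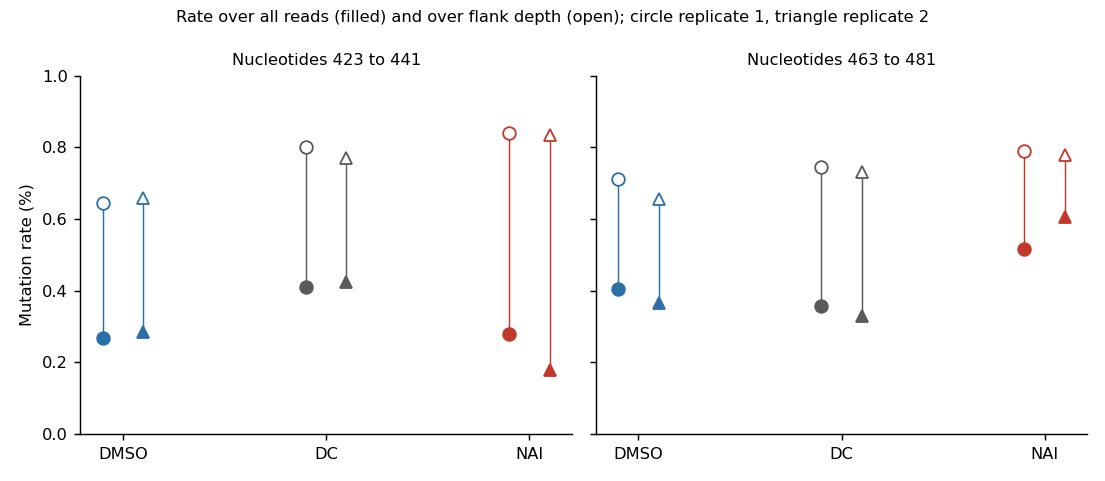
Mutation rate (%) of the 5′ edge (left) and 3′ edge (right) in the 6 libraries, over all reads (filled) and over flank depth (open); circles are replicate 1 and triangles replicate 2. Every open symbol is higher than its filled one, and the NAI replicates of the 5′ edge, 0.280% and 0.179%, come to 0.840% and 0.835%.

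Over the whole region, without G529, NAI raised the mutation rate above DMSO in both replicates. The summed rate was 0.804% and 0.808% with NAI, 0.573% and 0.548% with DMSO, and 0.735% and 0.726% in DC. The groups did not overlap. They averaged 0.806% ± 0.0024 (SD, n = 2), 0.561% ± 0.018 and 0.731% ± 0.0065. NAI was 1.40 and 1.47 times DMSO in replicates 1 and 2, DC was 1.28 and 1.32 times DMSO, and NAI was 1.09 and 1.11 times DC. Without the edges the means were 0.970% with NAI, 0.652% with DMSO and 0.872% in DC. These sums were not tested, because the smallest exact p that 2 libraries against 2 allow is 0.33. Beside the region, NAI was 1.25 and 1.31 times DMSO at 138 to 349, 1.51 and 1.51 times in the SNORA5C part, and 1.51 and 1.67 times in the SNORA5A part. Those parts keep every nucleotide, and with G529 kept the region had 1.33 and 1.44. Sums rest much on nucleotides with high rates. Median nucleotide rates with NAI and DMSO were 0.744% and 0.514% in the region without G529, and 0.680% and 0.474% at 138 to 349. They were 0.540% and 0.392% in the SNORA5C part, and 0.63% and 0.446% in the SNORA5A part.

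**Figure D3:**
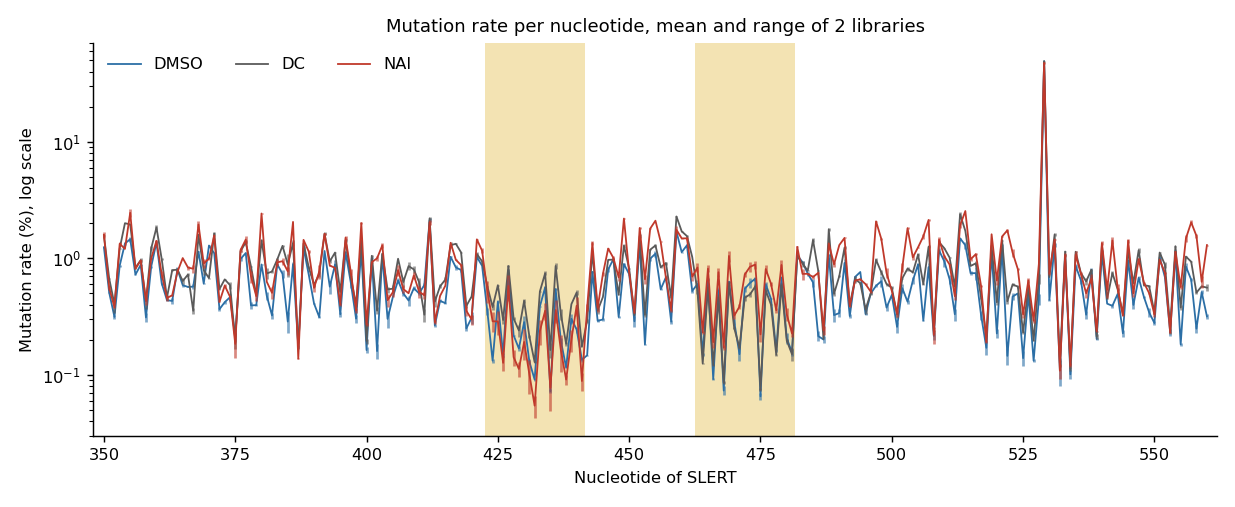
Mutation rate per nucleotide (%, log scale) against the nucleotide of SLERT with NAI (red), DMSO (blue) and DC (grey); lines are means of 2 libraries, vertical bars span the 2 libraries, and shading marks the edges. Rates drop within the edges, and G529 reaches 47.0% to 49.8% in every library.

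G529 stood apart from every other nucleotide of the region. It was read as mutated in 47.0% and 48.0% of reads with NAI, 49.4% and 49.0% with DMSO, and 49.8% and 48.7% in DC. The level was near the same in all 6 libraries, with and without the reagent. Its log2 change of NAI over DMSO was -0.05 (SE 0.03, edgeR adjusted p = 0.233) and that of DC over DMSO 0.00 (SE 0.03, adjusted p = 0.951). The authors' tables give it no normalised reactivity, so it enters no class, and it was left out of the summed rates. With G529 the summed rates were 1.02%, 0.737% and 0.873% in NAI, DMSO and DC.

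At 126 of the 211 nucleotides the mutation rate was higher with NAI than in the DMSO libraries, and at 11 it was lower. The test was edgeR's quasi-likelihood test, with Benjamini-Hochberg adjustment over all 693 tested nucleotides of SLERT, and a call is an adjusted p under 0.05. The background over all 693 was 44.9% higher and 3.32% lower (48.2% in either direction), and the region's shares were 59.7% and 5.21%. The region holds nucleotides of that background, and its share was not tested against the rest. Its median log2 change was 0.38, beside 0.23 over all 693. Under TMM scaling, where most nucleotides are taken as unchanged, the median of all 693 was -0.11 and that of the region 0.02. The split in the region then became 59 higher and 44 lower, so a direction for most nucleotides rests on rates per read. Of the 11 lower calls, 9 lay in the 5′ edge. On flank depth the region had 121 higher and 2 lower calls, with 0 of the lower ones in the 5′ edge. The 2 were C370 and C483, named here after their values were seen. Higher calls in the 3′ edge went from 18 of its 19 nucleotides on the deposited depth to 6 on flank depth. In the 5′ edge they went from 3 to 7 of 19. The number of lower calls also moved with single libraries. It was 20 without NAI replicate 1, 7 without NAI replicate 2, 5 without DMSO replicate 1 and 4 without DMSO replicate 2.

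DC was higher than DMSO at 132 nucleotides of the region and lower at 8, beside a background of 61.8% and 2.16% (63.9% called in either direction). These shares, 62.6% and 3.79%, are near the background. The median log2 change was 0.36 both in the region and over all nucleotides. With TMM scaling, which moved that median to -0.0046, the split was 45 higher and 40 lower. Of the 8 lower calls, 4 lay in the 3′ edge, and on flank depth 4 remained in the region and 0 in that edge. With flank depth, calls higher in DC went from 17 to 10 of 19 in the 5′ edge, and from 1 to 5 in the 3′ edge. Without DC replicate 2, and again without DMSO replicate 1, there were 3 lower calls. NAI was higher than DC at 76 nucleotides and lower at 47, beside a background of 27.1% and 31.5% (58.6% in either direction). All 19 nucleotides of the 3′ edge were among the higher calls, and 18 of 19 in the 5′ edge among the lower ones. On flank depth 4 of 19 were higher in the 3′ edge. In the 5′ edge 4 of 19 were then higher, where none had been, and 1 of 19 was lower. The 4 were G423, C424, C427 and A440, named after their values were seen, and C424, C427 and A440 had been called lower on the deposited depth. On flank depth the region had 66 higher and 32 lower calls.

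The authors' normalised reactivity is the difference of the NAI and DMSO rates over the DC rate, times 1 constant per table. A value near 0 means no rise over DMSO, and a negative one a rate below DMSO. Of the 210 nucleotides with a value in both replicates, 38 were flexible (over 0.85 in both), 107 were protected (under 0.4 in both) and 65 lay between or differed. The region's median was 0.313 in replicate 1 and 0.349 in replicate 2, beside 0.189 and 0.210 over all SLERT. Flexible nucleotides made up 18.1% of the region, and 11.0% of 138 to 349, 15.1% of the SNORA5C part and 16.2% of the SNORA5A part. Protected ones made up 51.0%, beside 65.2%, 64.7% and 68.4%. On flank depth the region had 37 flexible and 114 protected nucleotides, and without the edges 32 and 90 of 172. Across nucleotides, which are not independent, Pearson's r between the replicates was 0.939 and Spearman's rho 0.861 (n = 210). Without the edges they were 0.962 and 0.869 (n = 172), and on flank depth 0.958 and 0.846 (n = 210).

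**Figure D4:**
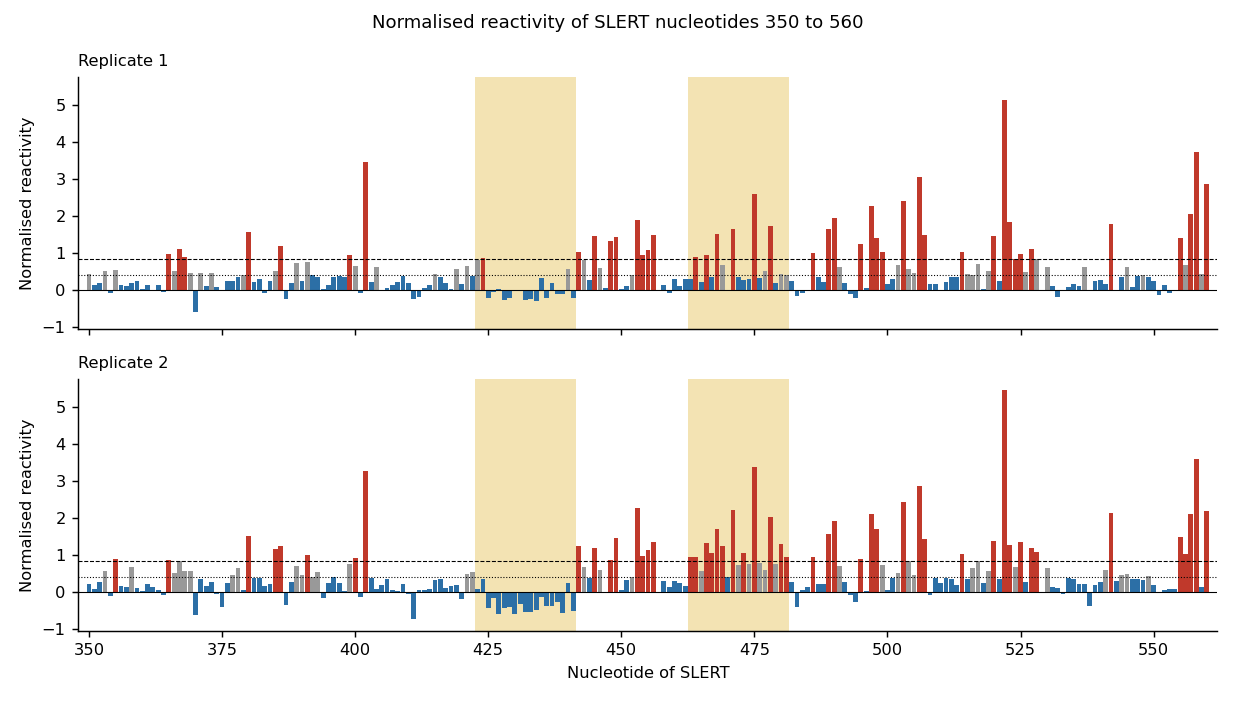
The authors' normalised reactivity against the nucleotide of SLERT in replicates 1 (top) and 2 (bottom); red bars are over 0.85 (dashed line), blue bars under 0.4 (dotted line), grey bars between, and shading marks the edges. G522 is highest in both replicates (5.15 and 5.45), and most negative values of the 5′ edge are lower in replicate 2, while G423, C424 and A440 there are above 0 in both.

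Flexible stretches are runs of at least 3 neighbours with reactivity of 0.4 or more in both replicates, a lower limit than that of single flexible nucleotides, so they also hold nucleotides that are not capitals in the sequence of the region. There were 7. They are shown in capitals with 3 nucleotides on each side.
365 to 369: ccaAUGAGcug
452 to 456: ugcAGAAGccc
489 to 491: ggaCGUggc
497 to 499: ccuAUGccu
502 to 507: gccUAUGGUgag
522 to 525: acaGAACggu
555 to 558: gcaGAUGccu
The highest median was that of 555 to 558, 1.74 and 1.8 in replicates 1 and 2. The stretch at 489 to 491 had 1.66 and 1.58, 497 to 499 had 1.42 and 1.71, and 522 to 525 had 1.41 and 1.32. Medians were 1.08 and 1.15 at 452 to 456, 1.09 and 1.13 at 502 to 507, and 0.890 and 0.572 at 365 to 369. None of the 7 lay in an edge. Within them purines made up 70% of 30 nucleotides and G or C 43.3%.

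The stretch 365 to 369 had a rate of 1.12% and 1.08% with NAI, 0.696% and 0.693% with DMSO and 0.813% and 0.829% in DC. All 5 of its nucleotides were called higher with NAI than with DMSO, beside 44.9% of all 693. That count follows largely from the choice of the stretch by a high NAI minus DMSO difference. In DC 3 were higher than with DMSO, beside 61.8% of all 693. G367 within it was lower in DC than in DMSO, 0.376% and 0.333% against 0.60% and 0.544%. With NAI it was 0.876% and 0.752%, above both.

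Protected nucleotides formed 6 stretches of at least 6 neighbours under 0.4 in both replicates, shown in the same way.
359 to 364: uugGCCCCAaug
405 to 414: gagCCGGCGGUCCgug
425 to 439: ugcUGCGGGCCAUCUCCUacc
457 to 462: aagCCCUUCucu
508 to 513: gguGAGCCCuuu
531 to 536: uggAGAGAGggg
Their medians were 0.0846 and 0.0831 at 359 to 364, 0.0968 and 0.0609 at 405 to 414, and 0.129 and 0.206 at 457 to 462. They were 0.201 and 0.30 at 508 to 513, and 0.10 and 0.18 at 531 to 536. G or C made up 73.5% of the 49 nucleotides in the 6 protected stretches and purines 40.8%, on the deposited depth. The longest, 425 to 439, lay wholly in the 5′ edge and had medians of -0.110 and -0.437. On flank depth its median was 0.115 and 0.0955, and the stretch under 0.4 shortened to 428 to 434.

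At 457 to 462 the DC rate was above both others, 1.33% and 1.32%, with 1.05% and 1.1% for NAI and 0.957% and 0.915% for DMSO. All 6 of its nucleotides were higher in DC than in DMSO, beside 61.8% of all 693. With NAI 5 were lower than in DC, beside 31.5%. The stretch was chosen by a low score that is divided by the DC rate, so these counts are not independent of the choice. The stretch at 405 to 414 showed little rise with NAI, which follows from its choice by low reactivity. Its rates were 0.681% and 0.693% with NAI, 0.660% and 0.645% with DMSO, and 0.792% and 0.806% in DC. For the same reason few calls could be found in it, and 1 of its 10 nucleotides was called higher with NAI than with DMSO, beside 44.9% of all 693.

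The most reactive nucleotide of the region was G522, within the flexible stretch 522 to 525. It was mutated in 1.68% and 1.8% of reads with NAI, 0.170% and 0.122% with DMSO, and 0.448% and 0.408% in DC. The 3 conditions did not overlap. The change over DMSO was 3.52 on the log2 scale (SE 0.13, edgeR adjusted p = 5.83e-12), an 11.5-fold rise, and NAI over DC was 2.01 (SE 0.12, adjusted p = 2.95e-09). Its authors' normalised reactivity was 5.15 and 5.45, with their standard errors of 0.112 and 0.25.

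G558 and U557, at the border with the SNORA5A part, followed the same order. G558 had 1.51% and 1.61% with NAI, 0.230% and 0.268% with DMSO, and 0.519% and 0.496% in DC, a 6.34-fold rise over DMSO (log2 2.67, SE 0.10, edgeR adjusted p = 6.9e-12). Its neighbour U557 had 1.96% and 2.12% with NAI and 0.676% and 0.636% with DMSO, a 3.09-fold rise. C560, the last nucleotide of the region, rose 4.07-fold, from 0.331% and 0.304% with DMSO to 1.31% and 1.29% with NAI.

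G402 stood alone, since no neighbour of it was flexible. Its rates were 1.04% and 0.957% with NAI, 0.183% and 0.137% with DMSO, and 0.379% and 0.332% in DC. The rise over DMSO was 6.12-fold (log2 2.61, SE 0.17, edgeR adjusted p = 2.35e-09), and normalised reactivity was 3.46 and 3.29.

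G506, A503 and A497 lay close together, in the flexible stretches 497 to 499 and 502 to 507. G506 had 1.48% and 1.61% with NAI and 0.293% and 0.291% with DMSO, a 5.27-fold rise (log2 2.40, SE 0.09, edgeR adjusted p = 8.19e-12). A503 rose 4.26-fold, to 1.78% and 1.85% with NAI from 0.439% and 0.409%. A497 rose 3.56-fold, to 2.08% and 2.07% from 0.60% and 0.562%. In these 3 the NAI libraries were above DC too, by log2 1.36, 1.15 and 1.09.

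The other two of the 10 most reactive nucleotides lay in the raised-depth zone. G453, in the centre of the zone, had 0.599% and 0.724% with NAI and 0.179% and 0.185% with DMSO, a 3.62-fold rise. G475, in the 3′ edge, had 0.192% and 0.254% with NAI, 0.0614% and 0.0695% with DMSO, and 0.0765% and 0.0725% in DC. Its log2 change over DMSO was 1.77 (SE 0.18, edgeR adjusted p = 4.84e-07) and on flank depth 1.43 (adjusted p = 1.41e-08). Its normalised reactivity of 2.59 and 3.38 became 1.77 and 1.66 on flank depth. Each of the 10 was called higher with NAI in every alternative fit run for it, 11 for G475, which the fit without the edges leaves out, and 12 for the others. Of the 10, 6 were G.

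The 8 nucleotides named as furthest below DMSO were C432, A433, U434, G428, U436, C441, U439 and G429, all within the 5′ edge. U434 had 0.413% and 0.296% with NAI and 0.545% and 0.582% with DMSO. Its log2 change was -0.64 (SE 0.12, edgeR adjusted p = 0.000417). On flank depth its change was -0.03 (adjusted p = 0.860). C432 went from -0.68 to -0.11, and A433 from -0.67 to -0.07. On flank depth G428, U436, C441, U439 and G429 turned to between 0.02 and 0.06, none of them called. None of the 8 kept its call in all 11 alternatives run for it.

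The lowest calls of NAI against DC were U436, G426, C432, G430 and A433, again all in the 5′ edge. U436 had 0.443% and 0.277% with NAI and 0.811% and 0.910% in DC, and its log2 change was -1.23 (SE 0.15, edgeR adjusted p = 6.69e-06). On flank depth it was -0.30 (adjusted p = 0.00262), and U436 alone of the 5 kept its call in all 12 alternatives. G475, in the 3′ edge, had a log2 change against DC of 1.56 on the deposited depth and 0.94 on flank depth. Ranked on the deposited depth, the highest calls of NAI against DC were G522, G558, G475, G402 and G506. Each kept its call in every alternative run for it, 12 for G475 and 13 for the others.

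Outside the edges, C370 was the nucleotide lowest in DC against DMSO. It had 1.03% and 0.962% with NAI, 1.29% and 1.29% with DMSO, and 0.669% and 0.683% in DC. DC and NAI were both below DMSO, by log2 -0.93 (SE 0.10, edgeR adjusted p = 2.66e-06) and -0.37 (SE 0.10, adjusted p = 0.00668). G411 was lower in DC than in DMSO by -0.83 (SE 0.15, adjusted p = 0.000286), with 0.370% and 0.286% against 0.572% and 0.609%. G367 was lower by -0.69. C494 had 0.626% and 0.599% in DC and 0.764% and 0.763% with DMSO, a change of -0.32 (adjusted p = 0.0123). A473, in the 3′ edge, had -0.33 (adjusted p = 0.0142) and on flank depth -0.06 (adjusted p = 0.570). C370, G411 and G367 kept their calls in all 12 alternatives.

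The highest calls of DC against DMSO were G486, G385, C424, G522 and C382. Each kept its call in every alternative run for it, 11 for C424 and 12 for the others. G486 had 0.771% and 0.788% in DC, 0.236% and 0.194% with DMSO, and 0.745% and 0.757% with NAI, so DC and NAI did not differ beyond their spread (log2 -0.05, SE 0.11, edgeR adjusted p = 0.708). G385 had 1.08% and 0.690% in DC against 0.344% and 0.229%, with replicate 1 higher in both. C382 had 0.744% and 0.797% in DC, 0.448% and 0.564% with NAI and 0.304% and 0.342% with DMSO, so NAI lay between them. C424, in the 5′ edge, was 2.86-fold higher in DC than with DMSO, and 2.28-fold on flank depth. Its NAI change over DMSO went from log2 1.13 to 1.75 on flank depth. Against DC its NAI change turned from -0.38 (edgeR adjusted p = 0.0495) to 0.55 (adjusted p = 0.000472). U485, chosen after its values were seen, showed a rise in DC alone, with 1.49% and 1.39% against 0.670% and 0.572% with DMSO and 0.665% and 0.718% with NAI. U485 and G486 lie just past the fall in depth after 482, and the part of that step in their values was not tested.

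Background and reactivity differed by base. The region holds 36 A, 60 C, 71 G and 44 U, with 62.1% G or C, beside 59.6% in the rest of SLERT. The median DMSO rate was 0.968% and 0.991% for A and 0.843% and 0.742% for U. It was 0.386% and 0.360% for G and 0.328% and 0.309% for C. Median normalised reactivity was 0.340 and 0.437 for A, 0.409 and 0.519 for U, 0.252 and 0.275 for G, and 0.240 and 0.204 for C. Of the nucleotides of each base, 30 of 36 A, 32 of 44 U, 37 of 71 G and 27 of 60 C were called higher with NAI than with DMSO. Flexible were 15 G, 10 C, 7 U and 6 A, and protected were 40 C, 36 G, 16 U and 15 A. A and U thus had higher medians, while 6 of the 10 most reactive nucleotides were G. Bases of 1 RNA are not replicates, and these figures are descriptions.

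Local folds were modelled by minimum free energy with ViennaRNA, with reactivity added as a pseudo-energy per stacked nucleotide (slope 1.8, intercept -0.6). Such a fold is a model of 1 structure, and it takes low reactivity of any origin as favouring pairing. Directed by the mean of both replicates, the fold of the whole RNA paired 120 of the 211 nucleotides (56.9%), with 50 pairs inside the region and 20 to nucleotides outside. A total of 8 folds were made, 1 per processing choice. They share the sequence and mostly the data, so pairs that recur are not independent.

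A stem of 8 pairs, 460 to 467 with the strand from G529 to G536, was in all 8 folds, including that from sequence alone. In the mean fold it was part of 11 pairs, 457 to 467 with G529 to G539, which stood whole in 5 folds. It is shown with the nucleotides between its strands, and capitals mark the 8 pairs of this stem only.
460 to 536: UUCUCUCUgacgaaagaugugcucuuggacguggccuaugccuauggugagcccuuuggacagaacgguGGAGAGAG
The 3′ strand of the stem, the protected purine run, had a median reactivity of 0.118 and 0.215. The 5′ strand had 0.313 and 0.761, and on flank depth 0.201 and 0.223, since 463 to 467 lie in the 3′ edge. On the deposited depth C464 and C466 of that strand were flexible, though paired in all 8 folds. Of the 15 nucleotides of the stem with a value, 12 were under 0.4 in replicate 1 and 9 in replicate 2. G529, without a reactivity, is the first nucleotide of the 3′ strand. The 61 nucleotides between the strands had a median of 0.473 and 0.736.

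Between its strands a stem of 4 pairs, 480 to 483 with 508 to 511, was in all 8 folds. Capitals again mark this stem only.
480 to 511: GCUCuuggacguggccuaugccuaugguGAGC
Its 3′ strand had a median of 0.167 and 0.319. Its 5′ strand had 0.336 and 0.608, and on flank depth 0.146 and 0.237. The 24 nucleotides between its strands, with the flexible stretches 489 to 491, 497 to 499 and 502 to 507, had a median of 0.597 and 0.617. They were not all unpaired, since a short stem of 3 pairs, 492 to 494 with 499 to 501, was also in all 8 folds. It takes in G499, of the flexible stretch 497 to 499. C525, of the stretch 522 to 525, was paired with 471 in the mean fold and was paired in 6 folds. G486, A497 and G506 were unpaired in all 8 folds, as were G475 and G522 between the strands of the longer stem. A503 was paired in 1.

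The 5′ part of the region was folded less alike. A hairpin of 6 pairs, 390 to 395 with 404 to 409, with a loop of 8 nucleotides that holds G402, was in 6 of 8 folds. Its strands had medians of 0.302 and 0.440 (5′) and 0.173 and 0.139 (3′), and G402 was paired in 2 folds. In the mean fold it was enclosed by pairs outside the edge, such as the 4 pairs 376 to 379 with 419 to 422 (4 folds), and by outer helices with a strand in the 5′ edge. Of these, the 6 pairs 357 to 362 with 428 to 433 were in 2 folds, and the 4 pairs 372 to 375 with 424 to 427 in 3. Pairs to the SNORA5C part, 1 to 5 with 550 to 554 and 10 to 13 with 545 to 548, were in 2 folds. So were pairs of 48 to 52 with nucleotides between 446 and 451, among them G448, which was flexible.

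The fold of replicate 1 shared 28 of the 70 pairs of the mean fold and that of replicate 2 shared 69. With the edge reactivities set to missing, 28 were shared, and from sequence alone 20. Read in the replicate that did not direct the fold, paired nucleotides were less reactive. For the fold directed by replicate 1, the replicate 2 median was 0.213 at 118 paired nucleotides and 0.660 at 92 unpaired ones. For the fold directed by replicate 2, the replicate 1 median was 0.183 at 117 paired nucleotides and 0.542 at 93 unpaired ones. From sequence alone the medians were 0.237 and 0.418 in replicate 1, and 0.289 and 0.531 in replicate 2. The replicates share the RNA and its sequence, so these medians are a description.

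**Figure D5:**
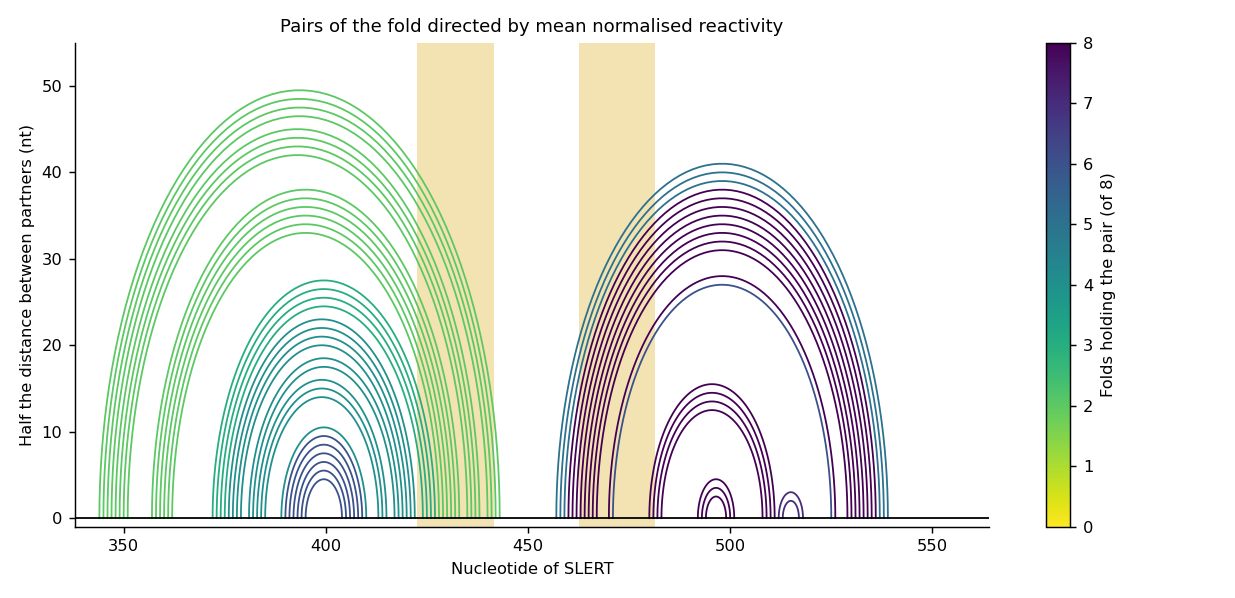
Base pairs of the mean fold drawn as arcs over the nucleotide of SLERT; height is the distance between partners divided by 2 (nt), colour the number of 8 folds that hold the pair, and shading the edges. Pairs to nucleotides 1 to 13 and 48 to 52 are not drawn. Arcs on the right, 460 to 467 with G529 to G536 and 480 to 483 with 508 to 511, are in all 8 folds, and the outer arcs on the left are in 2 or 3.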

How the data were processed

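SHAPE-MaP was read from the 2 SLERT tables, 1 per replicate, each with NAI, DMSO and DC columns. The 5S rRNA tables were not used. Per the file headers, mutations and effective depth are given per nucleotide as counts. The authors' rate is a fraction, mutations over effective depth, and is printed here in percent. The deposited reactivity and normalised reactivity are scores, as given in the file headers. In these tables the normalisation constant was 1.52 in replicate 1 and 1.33 in replicate 2, and the standard error of a score is the authors'. The submitters' processing notes name bcl2fastq 2.17.1.14. Aligner, mutation counter and genome build: not given in the sources used here. snoRNA lengths came from RefSeq.

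Counts of the 693 nucleotides whose effective depth reached 1000 in all 6 libraries were fitted in 1 model with edgeR 4.0.16 (quasi-likelihood, log effective depth as offset, no other scaling, R 4.3.3), two-sided, with Benjamini-Hochberg adjustment over all 693. An SE of a log2 change is its size over the square root of the F statistic. Folds used ViennaRNA 2.7.2, with negative reactivities set to 0, and a helix has at least 4 stacked pairs. Depth steps were changes of over 0.25 in log2 read depth. Each edge was the longest run within the zone over which the NAI rate of replicate 1 stayed above (5′) or below (3′) that of replicate 2. Flank depth used the 19 nucleotides outside each border.

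In the shallowest library, DMSO replicate 2, 3 mutations at median depth are a rate of 0.0028%. Reads carry no molecular identifiers, so such floors cover counting error only. Replicates differed by more than sampling noise, with a chi-square per nucleotide of 17.0 in NAI, 5.94 in DMSO and 9.12 in DC. Alternatives were TMM scaling, DESeq2 1.42.0, limma 3.58.1 (pseudocount 0.5), a minimum of 10 mutations, each library left out, other class limits, run lengths and fold settings. Nucleotides named are the 10 most reactive among those higher with NAI, up to 8 furthest below DMSO, the 5 highest and 5 lowest calls of NAI against DC and of DC against DMSO, and G529. The region, the classes and the lists were chosen with earlier results of these data known.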

Additional observations from a re-analysis of the deposited data

How the results depend on the processing

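TMM scaling gave 59 higher and 44 lower calls of NAI against DMSO in place of 126 and 11, and 45 and 40 of DC against DMSO in place of 132 and 8. limma gave 5 lower calls of DC against DMSO. On flank depth there were 2 lower calls of NAI against DMSO and 4 of DC against DMSO, and the changes of G428, U436, C441, U439 and G429 over DMSO became 0.0157, 0.0297, 0.0361, 0.0508 and 0.0587. Without the edges the lower calls were 2, 4 and, for NAI against DC, 31. Leaving out single libraries gave 4 to 20 lower calls of NAI against DMSO and 3 to 7 of DC against DMSO. The summed rates of NAI, DMSO and DC were 1.02%, 0.737% and 0.873% with G529 kept, and 0.744%, 0.514% and 0.667% as medians. They were 0.942%, 0.655% and 0.854% on flank depth, and 0.970%, 0.652% and 0.872% without the edges. Protected stretches numbered 2 with run lengths of 8 and 4, and 2 with a limit of 0.3, where flexible ones numbered 12. The share above the region's median was 59.7% of A, 38.3% of C, 47.1% of G and 62.5% of U, and 75.0%, 30.0%, 43.7% and 65.9% for the NAI minus DMSO rate. The paired share was 67.3% from sequence alone, 58.8% with pairs at most 150 apart, 53.1% with steeper pseudo-energies, 55.9% without the edges and 55.9% to 56.4% with 1 replicate. Pairs shared with the mean fold were 20, 35, 18 and 28 in these, 28 to 69 with 1 replicate and 39 for the region folded alone. Over all alternatives, values for single nucleotides kept direction and side of the threshold 418 times, lost a call 26 times and turned 5 times. Apart from what the alternatives change by construction, the cause was not tested.

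Replicate numbers were not used to pair the samples in the main fit. Correlations over nucleotides cannot tell whether libraries with the same number shared a culture or a batch. Same-numbered deviations correlated with r = 0.07 for NAI and DMSO, 0.21 for DC and DMSO and -0.11 for NAI and DC. With the number as a replicate block the calls were 129 and 13, 137 and 9, and 77 and 48, and a crossed replicate block of NAI and DC, chosen after seeing the data, gave 77 and 48. Precision is limited by 2 libraries a group. Within the edges the rates also rest on the depth chosen, and which reads there can carry mutations was not tested.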

Other observations

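Several of the most reactive G of the region lay between 2 A, a pattern noticed after the values were seen and given as values only. The trimer AGA occurs 11 times in SLERT among nucleotides with a reactivity in both replicates, 7 of them in the region. They are shown with the G in capitals.
G402: gcucaGagccg
G453: gugcaGaagcc
G475: cgaaaGaugug
G522: ggacaGaacgg
G532: guggaGagagg
G534: ggagaGagggg
G555: cugcaGaugcc
G402, G453, G475, G522 and G555 were flexible, with normalised reactivity from 1.41 to 5.15 in replicate 1 and from 1.49 to 5.45 in replicate 2. G555 had 1.41 and 1.49 and was mutated in 0.546% and 0.588% of reads with NAI, against 0.177% and 0.188% with DMSO. The G of the overlapping trimers in the protected purine run had low values, -0.177 and 0.114 at G532 and 0.0829 and 0.389 at G534. G532 had 0.125% and 0.0922% with NAI and 0.139% and 0.0806% with DMSO, and G534 0.116% and 0.126% against 0.110% and 0.0924%. Both were paired in all 8 folds. Of the flexible ones, G555 was paired in 5 folds, G402 in 2, G453 in 1 and G475 and G522 in 0. Outside the region G53 had 6.54 and 4.59 and G613 had 4.42 and 5.31, while G626 had 0.0898 and 0.0739 and G688 -0.612 and 0.543. The trimer alone thus came with high and with low values.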
